A study of Mus musculus with 6 samples.

Results

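The genes described here were 5 lymphocyte genes outside the T-cell receptor (TCR) complex, taken by symbol from a table of 621 genes of mouse bone marrow (BM): *Tcf7*, *Thy1*, *Gimap3*, *Gimap4* and *Klrc2*. All 5 were found. They were taken for their roles, by a rule with no measured threshold but with earlier results of these data known, from a table that was itself selected on these libraries. BM cells came from KO mice (replicates 4, 8 and 9) and WT mice (replicates 1, 3 and 7), with 3 mRNA-seq libraries each. Titles and source names call the KO group *Phc2* knockout, while its genotype entry reads *Phc2*+/-; *Phc2*, a subunit of Polycomb repressive complex 1, was not analysed here, so its transcript does not check the genotype. All mice were C57BL/6, 8 weeks old and from crosses of *Phc2*+/- parents, and the mutant allele is carried in the germ line rather than in a chosen cell type. The cells came from femurs and tibias, and no sort is named, so cells of several types can share a library. Whether each library comes from a mouse of its own is not stated, and p-values measure only the spread between these libraries.

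As background, T lymphocytes mature in the thymus, and a small number of mature T cells return to the BM and stay there, whereas natural killer (NK) cells develop mainly in the BM. *Tcf7* encodes TCF-1, a transcription factor of the T lineage that stays high in naive and memory T cells and is lowered in effector cells. *Thy1* encodes CD90, a surface protein of mouse T cells that is also found on some mesenchymal cells. The GIMAP proteins are GTPases of lymphocytes linked to their survival, and *Klrc2* encodes NKG2C, an activating lectin-like receptor of NK cells that pairs with CD94.

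The name naive T and NK lymphocyte genes was set against defining markers. Of 12 T-cell markers, 9 were in the table and none was at 0 in any library, among them *Cd3d*, *Cd3e* and *Cd3g*. *Thy1* and *Tcf7*, themselves among the 5 genes described, are also counted in these 9. Of 6 markers of naive T cells, *Tcf7* was the sole measured one, and *Lef1*, *Ccr7*, *Il7r* and *S1pr1* were among those not analysed here. Measured here means held in the table, whose genes all differ by 2-fold in a KO and WT library pair. An absent gene may thus have been detected without such a difference. Of 11 NK-cell markers, 2 were measured, *Klrc2* and the pore-forming protein gene *Prf1*. T-cell RNA was thus present in every library, while the words naive and NK rest on few measured genes. These include *Tcf7* and *Klrc2*, which are among the 5 genes and are no separate support for their name. The libraries also differed in *Xist*, the RNA that coats the inactive X chromosome, which had 74.6, 0.0192 and 0.0155 FPKM in KO replicates 4, 8 and 9, against 113, 98.2 and 0.00848 FPKM in WT replicates 1, 3 and 7. *Xist* was thus high in 1 KO and 2 WT libraries and near 0 in the others, a division that crosses the genotypes unevenly. The labels give no sex, and whether the division follows the sex of the mice was not tested.

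Values are FPKM, the sequenced fragments per kilobase of exon scaled to the mapped fragments of the library, so that genes of different length can be set side by side. *Gimap3* and *Gimap4* had the highest levels and *Klrc2* the lowest. *Gimap3* was above *Gimap4* in 4 of 6 libraries, the exceptions being WT replicates 1 and 3, and their ranges overlapped in both genotypes. *Gimap4* was above *Thy1* in 6 of 6 libraries, with ranges apart in KO BM and overlapping in WT BM. *Thy1* was above *Tcf7* in 6 of 6 libraries, but the ranges of that pair overlapped in both genotypes. *Tcf7* was above *Klrc2* in 6 of 6 libraries, with ranges apart in both.

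The mean of each of the 5 genes was higher in KO BM, and none of the differences passed the test across the table. In bulk BM, a different number of cells of a type and a different amount of RNA per cell cannot be told apart. Their log2 fold changes of FPKM + 1 (KO minus WT) were 0.36 to 1.17 with a median of 0.79, beside a median of -0.35 over all 621 genes. Without WT replicate 1 these medians were 0.56 for the 5 genes and -0.13 for all genes, without WT replicate 7 they were 1.13 and -0.58, and with *Xist* status as a term they were 0.71 and -0.15. A higher mean in KO BM was found for 5 of 5 genes, against 38.2% of the table. With limma and Benjamini-Hochberg adjustment over 621 genes, 0 genes of the table (0.0%) had an adjusted p under 0.05, and the smallest was 0.517. Without adjustment, a p under 0.05 was found for 8 genes with a higher mean (1.29%) and 6 with a lower mean (0.966%) in KO BM, and *Gimap3* was among the higher ones. The table itself was selected on these libraries. Each of its genes differs by 2-fold or more in 1 or more of the 9 possible KO and WT library pairs. Its p-values and its counts of higher means are thus not independent of that selection. Each of the 5 genes reached 2-fold only with the KO library higher, in 2 pairs for *Klrc2* to 6 for *Gimap3*. The higher mean in 5 of 5 genes is therefore no separate support for a difference. The number of reads behind each FPKM value is not known here, and no counting interval was computed.

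**Figure D1:**
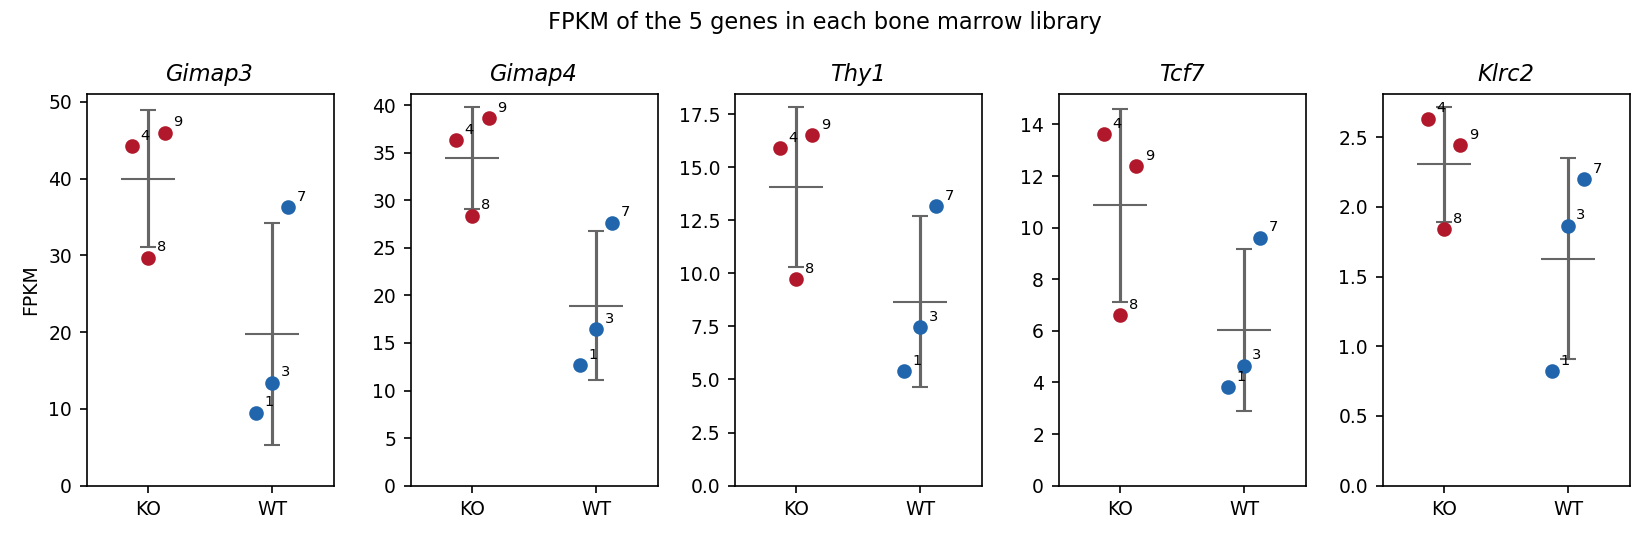
FPKM (vertical axes, linear from 0, a scale of its own for each gene) in KO (red) and WT (blue) BM, with each point a library labelled by its replicate number, the horizontal bar the mean and the vertical bar the SD (n = 3 each). In each of the 5 genes KO replicate 8 is the lowest KO library and WT replicate 7 the highest WT library, and *Gimap4* alone has every KO library above every WT library.

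*Gimap3* had 44.2, 29.7 and 46.0 FPKM in KO replicates 4, 8 and 9, against 9.52, 13.4 and 36.3 FPKM in WT replicates 1, 3 and 7. The groups overlapped, because WT replicate 7 lay above KO replicate 8, while WT replicates 1 and 3 lay below all KO libraries. The means were 40.0 ± 8.94 FPKM in KO BM and 19.8 ± 14.5 FPKM in WT BM (SD, n = 3 each), a ratio of 2.02. A ratio of at least 2 between the means was found for 5.15% of the table in this direction, and *Gimap3* was the sole one of the 5 genes to reach it. The log2 fold change was 1.17 (SE 0.53, 95% interval 0.08 to 2.27), the eighth highest of 621, with an unadjusted p of 0.0369 and an adjusted p of 0.598 in limma. *Gimap3* encodes a GIMAP protein of lymphocytes that in the mouse is anchored to organelle membranes.

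*Gimap4* had 36.3, 28.4 and 38.6 FPKM in KO replicates 4, 8 and 9, against 12.6, 16.5 and 27.6 FPKM in WT replicates 1, 3 and 7. All KO libraries exceeded all WT libraries, by a narrow margin between KO replicate 8 and WT replicate 7. With quantile normalization or scaling of the libraries to the same median, both over the 621 genes alone, this separation was lost. With the authors' log2 values it was kept. Such a separation was found for 1 of the 5 genes, against 37 of 621 genes (5.96%) in the table. The means were 34.4 ± 5.36 FPKM in KO BM and 18.9 ± 7.80 FPKM in WT BM (SD, n = 3 each), and the log2 fold change was 0.89 (SE 0.49, 95% interval -0.12 to 1.90, limma adjusted p = 0.598). The protein is a GTP-binding regulator of T-cell survival in the mouse.

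*Thy1* had 15.9, 9.71 and 16.5 FPKM in KO replicates 4, 8 and 9, against 5.39, 7.47 and 13.2 FPKM in WT replicates 1, 3 and 7. WT replicate 7 exceeded KO replicate 8, so the groups overlapped. The means were 14.0 ± 3.76 FPKM in KO BM and 8.67 ± 4.02 FPKM in WT BM (SD, n = 3 each), and the log2 fold change was 0.68 (SE 0.49, 95% interval -0.33 to 1.70, limma adjusted p = 0.598). Because *Thy1* also marks mesenchymal cells, a list of 22 mesenchymal and reticular genes was examined, of which 7 were in the table, *Thy1* included. Their summed level was 64.5 to 118 FPKM in KO BM and 61.8 to 92.3 FPKM in WT BM, and their median log2 fold change was -0.08.

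*Tcf7* had 13.6, 6.61 and 12.4 FPKM in KO replicates 4, 8 and 9, against 3.83, 4.65 and 9.61 FPKM in WT replicates 1, 3 and 7. The groups overlapped in the same way as for *Thy1*, with WT replicate 7 above KO replicate 8. The means were 10.9 ± 3.74 FPKM in KO BM and 6.03 ± 3.13 FPKM in WT BM (SD, n = 3 each), and the log2 fold change was 0.79 (SE 0.49, 95% interval -0.24 to 1.81, limma adjusted p = 0.598).

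*Klrc2* had 2.63, 1.84 and 2.44 FPKM in KO replicates 4, 8 and 9, against 0.821, 1.87 and 2.20 FPKM in WT replicates 1, 3 and 7. It was the least separated of the 5 genes, with both WT replicates 3 and 7 above KO replicate 8. The means were 2.30 ± 0.414 FPKM in KO BM and 1.63 ± 0.719 FPKM in WT BM (SD, n = 3 each), and the log2 fold change was 0.36 (SE 0.44, 95% interval -0.55 to 1.28, limma adjusted p = 0.602). At so low a level the added 1 FPKM shrinks a log2 fold change, and with 0.1 added in its place the value was 0.56. Without WT replicate 1, the lowest library, it was 0.12 with 1 FPKM added.

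The libraries took nearly the same order in each gene. KO replicate 8 was the lowest KO library in 5 of 5 genes, WT replicate 7 the highest WT library in 5 of 5 and WT replicate 1 the lowest WT library in 5 of 5. WT libraries spread more than KO libraries. The highest over the lowest was 1.36 for *Gimap4* to 2.06 for *Tcf7* among KO libraries, and 2.19 for *Gimap4* to 3.82 for *Gimap3* among WT libraries. Without KO replicate 8 all 5 genes separated in KO over WT, a pattern that then held for 13.2% of the table, and without WT replicate 7 it held for 4 of the 5 genes, all but *Klrc2*, and for 21.1% of the table. Without WT replicate 7 the log2 fold changes were 0.52 for *Klrc2* to 1.71 for *Gimap3*. These 4 genes then had an unadjusted p under 0.05 in limma, against 9.82% of the table with a higher mean in KO BM, and still 0 genes of the table passed the adjusted test.

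Among libraries with *Xist*, 1 KO and 2 WT, the KO minus WT difference of log2(FPKM + 1) was 1.87 for *Gimap3*, 1.48 for *Tcf7*, 1.27 for *Gimap4*, 1.20 for *Thy1* and 0.67 for *Klrc2*. Among libraries without *Xist*, 2 KO and 1 WT, it was 0.02 for *Gimap3*, -0.07 for *Tcf7*, 0.25 for *Gimap4*, -0.05 for *Thy1* and -0.03 for *Klrc2*. The differences were thus larger among libraries with *Xist* than among those without it for all 5 genes. The 25 other measured T and NK genes, described further on, had medians of 1.04 with *Xist* and 0.08 without it, beside -0.29 and 0.09 for the whole table. The difference between these differences passed for 0 of the 5 genes (limma interaction term, adjusted p 0.326 to 0.431) and for 0.483% of the table. At an unadjusted p under 0.05 it was found for *Tcf7* and *Gimap3*, against 14.0% of the table. On each side of this division a genotype has only 1 library. With *Xist* status as a term in the fit, the log2 fold changes were 0.32 for *Klrc2* to 0.95 for *Gimap3*, and that of *Gimap3* had an unadjusted p of 0.101.

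*Gimap3* and *Gimap4* lie in a cluster of 8 coding GIMAP genes that spans 123.6 kb of chromosome 6 (GRCm38, GENCODE M21, 48647234 to 48770851), and 4 of them were in the table. *Gimap4* covers chr6:48684549-48692060 on the plus strand and *Gimap3* chr6:48764464-48770851 on the minus strand, each with up to 5 exons and 72.4 kb apart. All 4 measured cluster genes had a higher mean in KO BM, none passed the adjusted test, and the median log2 fold change was 0.84. *Gimap7* had 8.18, 7.57 and 10.4 FPKM in KO replicates 4, 8 and 9, against 3.18, 3.86 and 7.35 FPKM in WT replicates 1, 3 and 7. As with *Gimap4*, the KO libraries lay above all WT libraries, again narrowly (log2 fold change 0.80). *Gimap8* averaged 13.1 ± 2.12 FPKM in KO BM and 7.85 ± 3.09 FPKM in WT BM (SD, n = 3 each) with overlapping groups. The ratio of *Gimap3* to *Gimap4* was 1.22, 1.05 and 1.19 in KO replicates 4, 8 and 9, against 0.753, 0.816 and 1.31 in WT replicates 1, 3 and 7, so these neighbours did not keep a fixed ratio. Of the 100-base stretches of the longest coding *Gimap3* transcript 2.0% also occur in *Gimap5*, and 0.0% of those of *Gimap4*, taken likewise, occur in another gene.

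The sequences before the starts of these neighbours are shown because both genes were high and low in the same libraries. RefSeq promoter entries (GRCm38.p6) were matched for 4 of the 5 genes, and the 250 bases before the start are given 5′ to 3′ on the strand of each gene. The *Gimap3* window is chr6:48770852-48771101 on the minus strand with 47.2% G or C, and the *Gimap4* window is chr6:48684328-48684577 on the plus strand with 47.6% G or C, and runs a little way into the GENCODE gene because RefSeq places its start further downstream. Capitals mark matches, on either strand, to 6-letter cores of lymphocyte transcription factor families: AGGAAG for ETS, TGTGGT for RUNX and CTTTGA for TCF/LEF, the family of TCF-1.
Gimap3: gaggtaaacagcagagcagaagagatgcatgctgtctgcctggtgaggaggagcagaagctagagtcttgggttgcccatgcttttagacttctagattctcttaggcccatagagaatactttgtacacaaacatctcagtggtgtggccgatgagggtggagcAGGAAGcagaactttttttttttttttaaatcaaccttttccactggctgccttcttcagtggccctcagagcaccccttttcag
Gimap4: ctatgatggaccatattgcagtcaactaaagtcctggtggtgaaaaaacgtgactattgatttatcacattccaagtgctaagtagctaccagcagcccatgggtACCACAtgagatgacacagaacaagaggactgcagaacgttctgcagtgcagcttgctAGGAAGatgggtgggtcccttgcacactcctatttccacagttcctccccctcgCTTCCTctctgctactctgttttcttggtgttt
Counting the last base before the start as -1, the *Gimap3* window holds an ETS core that begins at -85, and the *Gimap4* window holds an ETS core at -87, another in the reverse direction at -33 and a RUNX core in the reverse direction at -145. No TCF/LEF core is in either window, but *Gimap4* has 1 in the reverse direction that begins at base 26 of the transcribed side, counting the start as 1, and none of these cores overlaps another. Of 32851 mouse promoter windows of the same length, 29.5% hold the ETS core, 14.0% the RUNX core and 13.8% the TCF/LEF core, so such matches are common and are given as a description of the sequence.

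The other 3 genes lie apart from the cluster or further along the same chromosome. *Tcf7* covers chr11:52252371-52283014 on the minus strand with up to 11 exons, and *Thy1* covers chr9:44043384-44048579 on the plus strand with up to 4 exons. *Klrc2* covers chr6:129647496-129660689 on the minus strand, between *Klrc3* and *Klrc1*, close paralogs that were not analysed here. Of the 100-base stretches of its longest coding transcript, 12.8% also occur in *Klrc1* or *Klrc3*, so reads could be divided between these genes and the *Klrc2* level is uncertain. For *Tcf7* and *Thy1* that share was 0.0%.

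Other genes of each role were taken from lists, of which the table holds only a selected part. Genes of a list that are absent from the table may not have reached 2-fold in any library pair. Counts of higher means thus describe the kept genes and not whole lists. Of 20 naive T-lymphocyte genes 3 were measured, of which 2 had a higher and 1 a lower mean in KO BM. *Txk*, a TEC-family kinase of T cells, averaged 2.60 ± 0.810 FPKM in KO BM and 1.35 ± 0.734 FPKM in WT BM (SD, n = 3 each). *Id3*, an inhibitor of E proteins that B-lineage and other marrow cells also express, averaged 20.1 ± 2.85 FPKM in KO BM and 29.4 ± 14.7 FPKM in WT BM, the sole lower mean among these lists. Of 18 pan T-cell surface genes 5 were measured, all with a higher mean in KO BM and a median log2 fold change of 0.61. *Ms4a4b*, a membrane protein of T cells, had the highest level of them with 24.1 ± 5.68 FPKM in KO BM and 16.0 ± 3.19 FPKM in WT BM (SD, n = 3 each), while *Cd5* and *Cd6*, which damp TCR signalling, averaged 3.21 and 2.89 FPKM in KO BM, against 1.81 and 1.48 FPKM in WT BM. None of the measured genes of these lists passed the adjusted test.

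Of 27 NK-cell receptor genes 3 were measured, all with a higher mean in KO BM and a median log2 fold change of 0.49. *Klra8* (Ly49H, an activating receptor of mouse NK cells) had 5.65, 3.69 and 5.43 FPKM in KO replicates 4, 8 and 9, against 1.67, 2.23 and 3.77 FPKM in WT replicates 1, 3 and 7. WT replicate 7 lay just above KO replicate 8, as for *Thy1* and *Tcf7*. *Klra9*, of the same Ly49 family, averaged 1.78 ± 0.694 FPKM in KO BM and 0.986 ± 0.547 FPKM in WT BM (SD, n = 3 each), and reads of Ly49 genes may be divided among near-identical copies. Of 23 NK-cell and cytotoxic effector genes 6 were measured, all with a higher mean in KO BM and a median log2 fold change of 0.51. *Ccl5*, a chemokine of cytotoxic lymphocytes, averaged 53.1 ± 13.8 FPKM in KO BM and 27.7 ± 10.1 FPKM in WT BM (SD, n = 3 each) with no overlap between groups. *Prf1* averaged 3.0 ± 1.0 FPKM in KO BM and 1.95 ± 0.533 FPKM in WT BM (SD, n = 3 each), with overlap. *Il2rb*, the shared receptor chain for IL-2 and IL-15, and *Ctsw*, a protease of cytotoxic cells, averaged 16.4 and 10.8 FPKM in KO BM, against 11.6 and 6.89 FPKM in WT BM. *Ccl3* and *Ccl4*, chemokines that myeloid cells also make, averaged 17.5 and 7.50 FPKM in KO BM, against 12.4 and 4.72 FPKM in WT BM. None of the 9 measured genes of these NK lists passed the adjusted test.

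Of 20 TCR-complex and coreceptor genes 9 were measured, with log2 fold changes of 0.40 for *Cd4* to 1.27 for *Cd8b1* and a median of 0.71. None of them passed the adjusted test. The T and NK lists together held 30 measured genes, and the 25 apart from the 5 described here had 24 higher means, a median log2 fold change of 0.59 and 2 genes with every KO library above every WT library, *Gimap7* and *Ccl5*, beside 5.96% of the table. The 24 genes reached 2-fold in a library pair only with KO higher, and *Id3* only with WT higher. The direction of these means is thus not independent of how the genes entered the table.

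**Figure D2:**
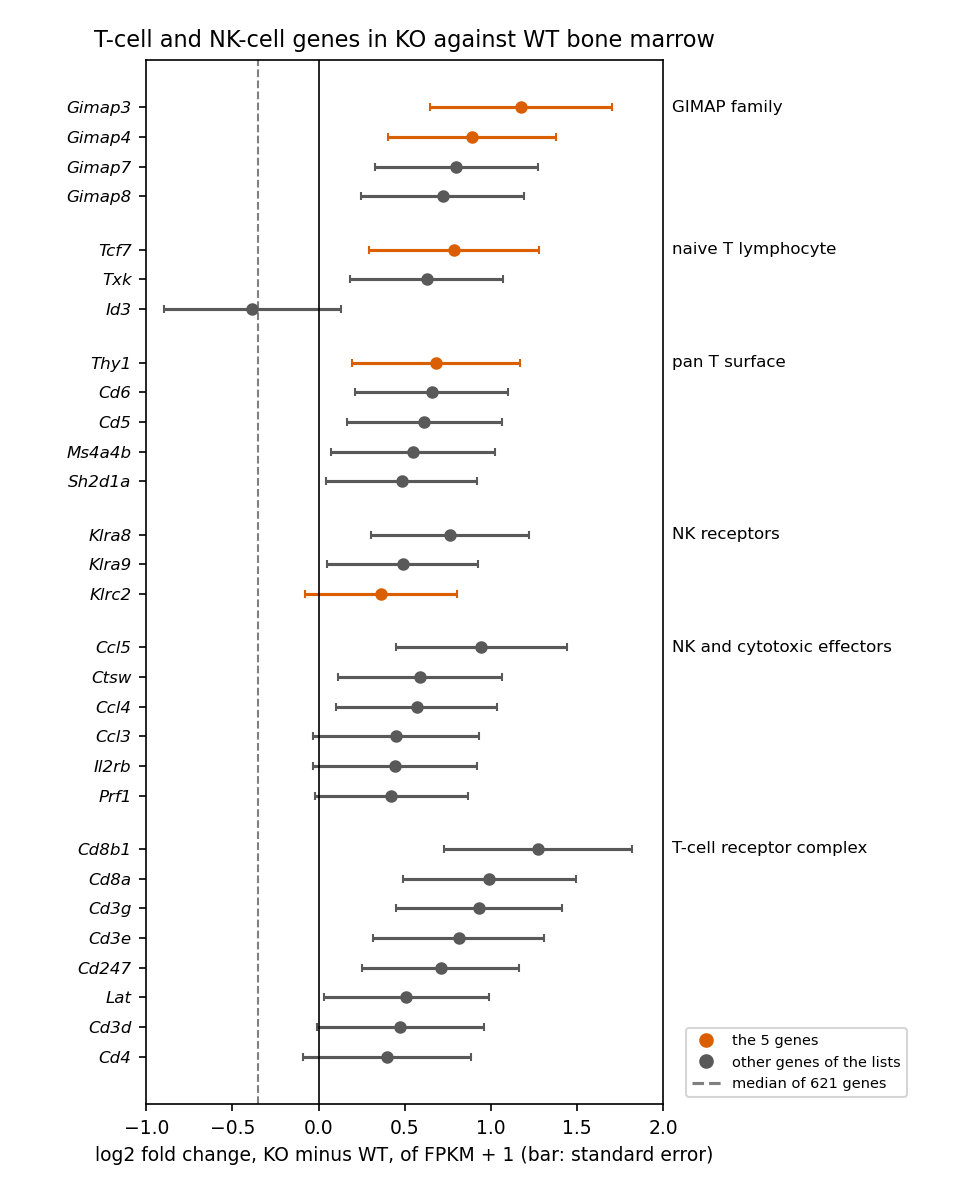
Log2 fold change of FPKM + 1, KO minus WT (horizontal axis), for measured genes of 6 lists, with bars for the standard error from limma, orange for the 5 genes and grey for the others. Values lie between -0.38 for *Id3* and 1.27 for *Cd8b1*, the dashed line is the median of -0.35 over all 621 genes, and no gene passed the adjusted test.

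To see how far the 5 genes followed T-cell RNA, each was set against the CD3 chains (*Cd3d*, *Cd3e*, *Cd3g*), the signalling chains of the TCR. The geometric mean of the chains was 8.49, 4.68 and 7.07 FPKM in KO replicates 4, 8 and 9, against 2.03, 2.82 and 6.83 FPKM in WT replicates 1, 3 and 7. KO replicate 8 was again the lowest KO library and WT replicate 7 the highest WT library.

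The ratio of *Tcf7* to the CD3 chains was 1.60, 1.41 and 1.75 in KO replicates 4, 8 and 9, against 1.89, 1.65 and 1.41 in WT replicates 1, 3 and 7. The ratio of *Gimap4* to the chains was 4.27, 6.07 and 5.46 in KO and 6.23, 5.84 and 4.05 in WT, in the same order of replicates. On the log2 scale the KO minus WT difference of these ratios was -0.05 for *Tcf7* and -0.02 for *Gimap4*, with overlapping groups, beside 0.95 for the chains themselves. The ratio of *Thy1* was 1.87, 2.08 and 2.34 in KO and 2.66, 2.65 and 1.92 in WT, a log2 difference of -0.19. The ratio of *Gimap3* was 5.20, 6.35 and 6.51 in KO and 4.69, 4.77 and 5.32 in WT, a log2 difference of 0.28, with WT replicate 7 just above KO replicate 4. The ratio of *Klrc2* was 0.310, 0.393 and 0.345 in KO and 0.405, 0.662 and 0.322 in WT, a log2 difference of -0.35. The ratios of all 5 genes thus overlapped between KO and WT, and none was given a test.

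**Figure D3:**
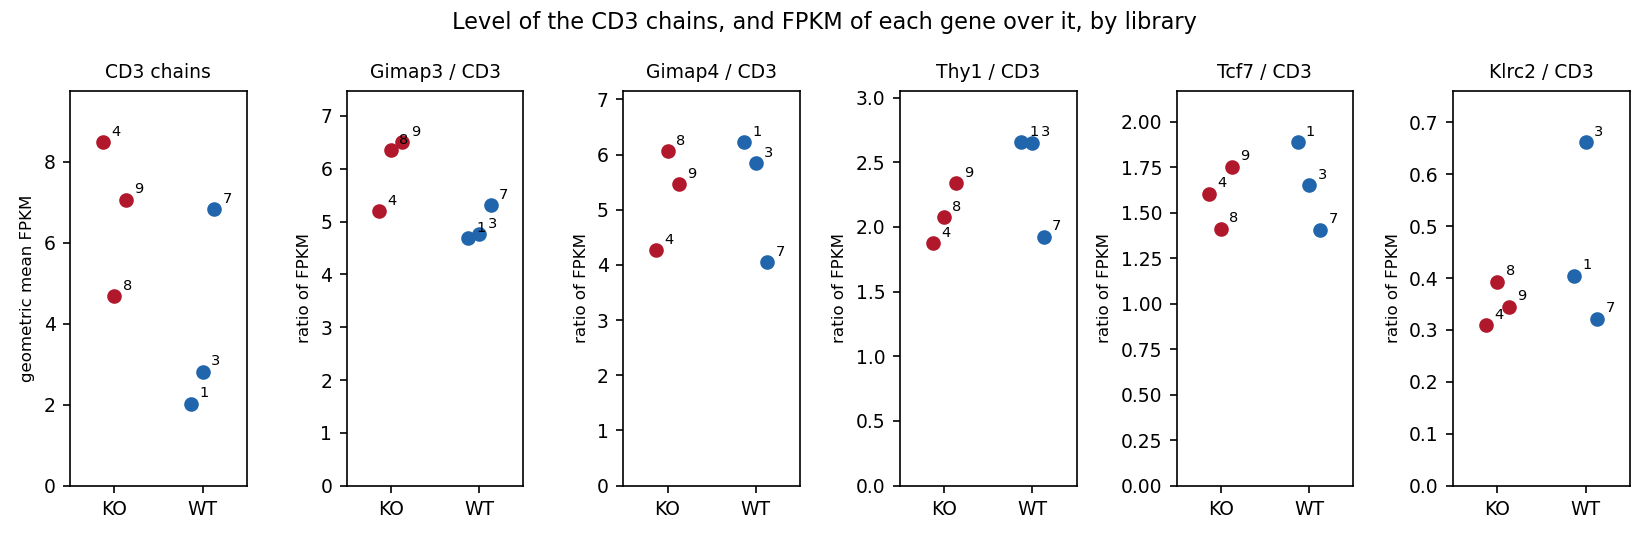
Geometric mean FPKM of *Cd3d*, *Cd3e* and *Cd3g* (left panel) and the FPKM of each gene divided by it (other panels), linear axes from 0, with each point a library labelled by its replicate number, KO in red and WT in blue. The chains run from 4.68 to 8.49 FPKM in KO BM and from 2.03 to 6.83 FPKM in WT BM, and the ratios of the 5 genes overlap between KO and WT.

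Likeness of profiles was measured as the root mean square difference of log2(FPKM + 1), centred on each gene, over the 6 libraries, where 0 is an identical profile. All genes share these libraries, so the values are a description. Among the 5 genes, *Tcf7* and *Thy1* were closest at 0.114, followed by *Gimap4* and *Thy1* at 0.145, and *Gimap3* and *Klrc2* were farthest apart at 0.562. Of 570 other genes with a mean of at least 1 FPKM, those nearest to *Tcf7* were *Cd3g* at 0.134, *Txk* at 0.159 and *Faah* at 0.168, beside a median of 0.953 over these genes. Those nearest to *Thy1* were *Faah* at 0.0963 and *Txk* at 0.101, beside a median of 0.903. *Faah* encodes fatty acid amide hydrolase, an enzyme that breaks down endocannabinoids.

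The genes nearest to *Gimap3* were *Cd8a* at 0.153, *H2-Eb1* at 0.178 and *Cd8b1* at 0.180, beside a median of 1.19. Those nearest to *Gimap4* were *H2-Aa* at 0.0699, *Faah* at 0.0716 and *H2-Ab1* at 0.0748, beside a median of 0.938. *H2-Aa*, *H2-Ab1* and *H2-Eb1* encode chains of MHC class II, which B cells, dendritic cells and macrophages use to present antigen and mouse T cells lack. *Gimap4* was thus nearer to *H2-Aa* and *H2-Ab1*, in its profile over 6 libraries, than to *Thy1* (0.145) or *Tcf7* (0.191). The genes nearest to *Klrc2* were *Scrg1* at 0.0732, *Rnf13* at 0.0843 and *Galnt6* at 0.0977, none of which is an NK-cell gene, beside a median of 0.716. The measure depends on the size of the differences between libraries, which the added 1 FPKM shrinks at the low level of *Klrc2*. Its nearest genes therefore do not show which cells its RNA came from.

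Markers of other cells also varied over these libraries. The summed level of the 5 genes was 76.2 to 116 FPKM in KO BM and 32.2 to 88.9 FPKM in WT BM. Of 27 monocyte and dendritic-cell genes 6 were measured, with sums of 1652 to 2031 FPKM in KO BM and 802 to 1605 FPKM in WT BM, and 5 of the 6 had every KO library above every WT library, beside 5.96% of the table. The highest log2 fold change of this list, 1.04, was that of *H2-Eb1*, an MHC class II gene that B cells also express. The measured part of the list therefore does not mark monocytes and dendritic cells alone. Of 24 B-cell precursor genes 16 were measured, with sums of 787 to 1061 FPKM in KO BM and 707 to 1988 FPKM in WT BM and all 16 means lower in KO BM. Of 26 osteoblast and chondrocyte genes 17 were measured, with sums of 142 to 788 FPKM in KO BM and 131 to 1620 FPKM in WT BM and all 17 means lower in KO BM. Of 22 endothelial genes 10 were measured, with sums of 11.2 to 30.6 FPKM in KO BM and 13.1 to 52.5 FPKM in WT BM and all 10 means lower in KO BM. By mean log2 level, the bone and endothelial lists were highest in WT replicates 1 and 3, as was the precursor list. In these libraries the 5 lymphocyte genes were lowest. KO replicate 4 came next for the bone list (3.92) and the endothelial list (1.92), yet the 5 genes were highest there (4.11). KO replicate 4 and WT replicates 1 and 3 were also the libraries high in *Xist*. No marker of these lists was at 0 in any library, no gene in them passed the adjusted test, and their part in the level of the lymphocyte genes was not tested.

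**Figure D4:**
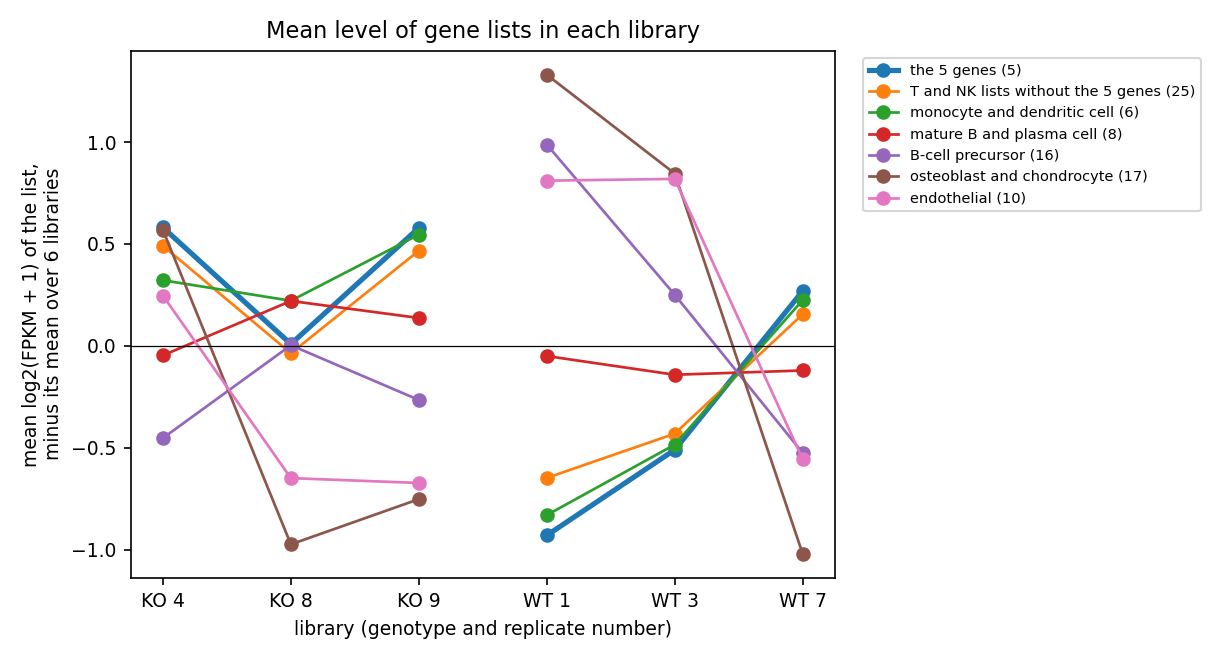
Mean log2(FPKM + 1) of each list in each library, minus its mean over the 6 libraries (vertical axis), for KO replicates (left) and WT replicates (right), with the number of measured genes in brackets. The 5 genes (thick line) run close to the 25 other T and NK genes and to the monocyte and dendritic-cell list, and in WT replicates 1 and 3 they are low where the B-cell precursor, osteoblast and endothelial lists are high. In KO replicate 4 the 5 genes and the osteoblast and endothelial lists all lie above their means.

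Annotation of the 5 genes was read from the deposited term tables as membership only, and in part restates the roles for which they were taken. GTP binding held 13 genes of the table, *Gimap3* and *Gimap4* among them. T cell activation held 35 genes, with *Tcf7* and *Thy1*, and the external side of the plasma membrane held 36, with *Thy1* and *Klrc2*. The KEGG pathway of NK cell mediated cytotoxicity held 10 genes, with *Klrc2*, and that of Wnt signalling, in which TCF-1 acts with beta-catenin, held 5, with *Tcf7*.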

How the data were processed

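Poly(A) RNA of WT and KO BM cells was sequenced by the study on an Illumina HiSeq4000 (TruSeq libraries, paired reads of 100 nt). Reads were aligned to mm10 with HISAT2 version 2.0.5, and the authors deposited FPKM from StringTie version 1.3.3b. They also deposited log2 values made from these FPKM by a further normalization for which the sources used here name no method. FPKM hold no counts, so depth is unknown and a count model was not used. No per-library column was left unmatched to a sample. Numbers of genes per GO and KEGG term, which the authors deposited, were not used as values, and their p-values, false discovery rates and folds between libraries were not used. The term lists served for membership only.

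KO and WT (3 libraries each) were compared on log2(FPKM + 1) by limma (version 3.58.1, run in R version 4.3.3), the variance prior following the mean level, with Benjamini-Hochberg adjustment over 621 genes at 0.05. A gene needed a value above 0 in 3 or more libraries, and all 621 had it. The fit was tested on simulated data first. Alternatives were another pseudocount, no filter and a filter on low values, quantile and median scaling, no trend, the authors' log2 values, a term for *Xist* above 1 FPKM, and leaving out each library. Gene positions are from GENCODE M21, and shared stretches were searched in its transcripts, all annotated transcripts of other genes included. Other steps used Python version 3.11.15 with pandas version 2.3.3 and numpy version 2.4.6.

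Named genes were the 5 genes, up to 6 genes with the highest mean FPKM from each T or NK list, the 3 nearest profiles of each of the 5 genes, and *Xist* and the CD3 chains. A gene that this rule also names is not reported here. The 5 genes and all lists were chosen with earlier results of these data known.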

Additional observations from a re-analysis of the deposited data

How the results depend on the processing

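In 14 alternatives each, the log2 fold changes of the 5 genes stayed positive and short of the adjusted threshold, from 0.56 to 1.13 for *Tcf7*, 0.42 to 1.00 for *Thy1*, 0.79 to 1.71 for *Gimap3*, 0.65 to 1.19 for *Gimap4* and 0.12 to 0.56 for *Klrc2*, with limma adjusted p from 0.104 to 0.950. The highest values came without WT replicate 7, except for *Klrc2*, and the lowest without WT replicate 1. Genes passing the adjusted test numbered 0 to 1 when a library was left out, namely 1 gene without KO replicate 4, *Xist*, and 1 without KO replicate 9, *Atp6v0c-ps2*, both named after their values were seen. Of the 5 genes, those with every KO library above every WT library numbered 1 to 5 when a library was left out (7.57% to 21.1% of the table), 0 under quantile normalization (4.03% of the table) and 0 under scaling to the same median (5.80% of the table), so that the separation of *Gimap4* rests on the scaling. These scalings moved the all-gene median log2 fold change to -0.18 and -0.23, from -0.35, and that of the 5 genes to 0.91 in each. An unadjusted p under 0.05 was found with quantile normalization for 22 genes with a higher and 4 with a lower mean in KO BM, and without WT replicate 7 for 61 and 191. The *Xist* interaction was called for 3 genes in each of 7 alternatives (*Gp1bb*, *Rps27* and *Rps27rt*, likewise named afterwards). No paired analysis was done, because KO and WT libraries share no replicate number and the labels do not say whether mice were paired. With 3 libraries a group and FPKM alone, no difference of any size passed the adjusted test in the main fit. The log2 fold changes of the table ran from -2.39 to 2.02.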
